A study of Mus musculus with 2 samples.

Results

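Serpins are a family of protease inhibitors that share a fold and an exposed reactive loop. A target protease cuts the loop, the serpin changes shape, and inhibitor and protease stay bound as an inactive complex. In the mouse, the genes are sorted into clades a to i by sequence: clade a holds the secreted relatives of antitrypsin and antichymotrypsin, clade b holds serpins that stay inside cells, and clades c to i hold mostly extracellular inhibitors of clotting, fibrinolysis and complement together with a few members that inhibit no protease. In tissues, clade b serpins are known from white blood cells, which they shield from their own granule proteases, and from stratified epithelia such as epidermis. The members described here were chosen by name, as every gene symbol that starts with Serpin, a clade letter from a to i and a number. Of 40879 gene symbols with a count, 65 met this rule. Clade a had 26 of them, clade b had 28 and clades c to i had 11. One of the 65 symbols, Serpina4-ps1, is named as a pseudogene.

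The values come from the intestine of C57BL/6 mice of 2 genotypes, ERAP1 wild type (WT) and ERAP1 hetero type (ERAP1+/-). ERAP1 is an aminopeptidase of the endoplasmic reticulum that trims peptides for display to T cells. The mice of both genotypes belonged to untreated groups, which were formed at an age of 8 weeks and drank water for 28 days, and RNA of 3 mice per genotype was pooled into 1 library. According to the methods, the ERAP1+/- line came from a tm1a embryonic stem cell clone and a cross to a Cre strain that is not named, with loxP sites around exons 6 and 7 in the line. The libraries were made by QuantSeq 3' mRNA-Seq, which reads the ends of polyadenylated transcripts, so that each transcript gives about 1 read position and genes can be compared without scaling by length. The genotypes have 1 library each, so no difference has a replicate check, variation between mice was not measured, and no p-value is given.

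The libraries held 8114826 counted reads for WT and 8907515 for ERAP1+/-. Levels are given as reads and as CPM, the reads of a gene relative to a common library size, after TMM scaling (trimmed mean of M values). Differences are in log2(CPM + 1), ERAP1+/- minus WT, on which the change of a gene with few reads looks smaller than it is. Ratios carry exact 95% intervals that cover counting error only. Where a gene had no read, a level of up to 3 reads was allowed, which corresponds to 0.386 CPM for WT and 0.322 CPM for ERAP1+/-. Erap1 itself had 229 WT reads and 2 ERAP1+/- reads, a level of 0.730% of WT (95% interval 0.0878% to 2.67%). This is far below what an intact second copy would give if both alleles were read alike, and the 3' end that is sequenced lies outside the floxed exons. The second library is therefore called the library labelled ERAP1+/-, and each direction below rests on that label. All 12 colonocyte markers had reads in both libraries, among them Lgals4 with 22956 and 27348 reads.

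The serpins fell into 3 gene clusters and a set of single loci. On chromosome 1 of the build GRCm38, 12 clade b genes lay between 106861173 and 107610484. On chromosome 12, 25 clade a genes lay between 103614786 and 104414329. On chromosome 13, 16 clade b genes lay between 32842092 and 34002794. The other 12 members lay elsewhere. Because the chromosome 1 genes were lower together in the library labelled ERAP1+/-, the 100 bases before the RefSeq start of some of them are shown, 5′ to 3′ on the strand of the gene, beside 2 genes of chromosome 12 with opposite differences. Capitals mark the letters TGANTCA (N any base), searched on both strands, and TATAAA, searched on the strand of the gene in the last 50 bases. TGANTCA is a loose form of the site bound by AP-1 factors such as Fos and Jun. The genes shown are a selection, and most of those from chromosome 1 hold a marked word. The windows were chr1:106934349-106934448 (plus strand) for Serpinb12, chr1:107422589-107422688 (plus) for Serpinb7, chr1:107511323-107511422 (plus) for Serpinb2, chr1:107528903-107529002 (plus) for Serpinb10, chr1:107589906-107590005 (plus) for Serpinb8, chr1:107052304-107052403 (minus) for Serpinb3a, chr12:104314470-104314569 (plus) for Serpina3j and chr12:104406608-104406707 (plus) for Serpina3n.
Serpinb12: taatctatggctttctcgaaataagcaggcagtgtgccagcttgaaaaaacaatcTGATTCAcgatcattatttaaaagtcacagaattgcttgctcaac
Serpinb7: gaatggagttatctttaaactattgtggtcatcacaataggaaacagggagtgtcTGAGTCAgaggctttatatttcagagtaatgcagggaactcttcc
Serpinb2: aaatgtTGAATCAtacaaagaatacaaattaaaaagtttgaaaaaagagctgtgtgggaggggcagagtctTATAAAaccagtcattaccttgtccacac
Serpinb10: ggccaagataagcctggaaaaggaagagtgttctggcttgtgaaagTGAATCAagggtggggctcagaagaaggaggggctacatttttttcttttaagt
Serpinb8: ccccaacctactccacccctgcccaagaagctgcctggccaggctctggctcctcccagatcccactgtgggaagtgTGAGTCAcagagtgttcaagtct
Serpinb3a: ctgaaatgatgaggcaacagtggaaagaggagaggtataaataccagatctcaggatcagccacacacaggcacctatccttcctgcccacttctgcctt
Serpina3j: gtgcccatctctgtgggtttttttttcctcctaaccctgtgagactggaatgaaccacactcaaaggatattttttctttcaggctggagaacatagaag
Serpina3n: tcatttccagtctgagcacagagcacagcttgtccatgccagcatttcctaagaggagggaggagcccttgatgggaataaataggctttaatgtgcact

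Of the 65 serpins, 54 had an entry in the RefSeq promoter table (GRCm38.p6), some with more than 1 start. In the 250 bases before the start, TGANTCA was present in 8 of 13 entries of the chromosome 1 cluster (61.5%), 4 of 20 of the chromosome 12 cluster (20%), 0 of 19 of the chromosome 13 cluster and 0 of 11 at other loci. The same letters were found in 6.75% of all 32841 promoter entries (2217). The entries with these letters are not independent. The 4 on chromosome 12 belong to the near-identical genes Serpina1a to Serpina1d, and both Serpinb2 entries hold the same word. By gene, 7 of 11 chromosome 1 genes held TGANTCA. They included Serpinb5 and Serpinb8, which had the smallest differences of the cluster among genes with at least 10 reads. None of the Serpinb3 genes held it, and these had 468 WT reads and 0 in the library labelled ERAP1+/- together. TATAAA was present in 3 of 13 chromosome 1 entries (23.1%), 2 of 20 of chromosome 12 (10%), 1 of 19 of chromosome 13 (5.26%) and 2 of 11 at other loci (18.2%), beside 2.63% of all entries. The 2 at other loci are the same word before 2 close starts of Serpina7. By gene, TATAAA was present in 3 of 11, 2 of 18, 1 of 15 and 1 of 10. Serpinb3a, the chromosome 1 gene with the most WT reads, had neither word in the windows searched, and neither had Serpina3j or Serpina3n. These motifs were chosen after the values were known, and a match describes letters, not binding.

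Serpin transcripts as a whole made up 0.172% of the WT reads (13930 reads) and 0.140% of the reads labelled ERAP1+/- (12449 reads). No read was found for 24 of the 65 genes in both libraries, 15 had reads only in WT and 5 only in the library labelled ERAP1+/-. Of all 40879 symbols, 19041 had no read, 1784 had reads only in WT and 2095 only in the library labelled ERAP1+/-. Clade b held 83.7% of the serpin reads in WT and 82.0% in the other library, and most of these belonged to Serpinb1a and Serpinb6a. In both libraries the order of levels began with Serpinb1a, Serpinb6a and Serping1, each separated from the next by an interval that excluded a ratio of 1. In WT the next genes were Serpinb3a (52.4 CPM) and Serpinb5 (47.1 CPM), whose levels did not differ beyond counting error. They were followed by Serpinh1, Serpine2, Serpinb12 and Serpina3j, from 34.9 to 26.1 CPM, where no neighbour differed from the next beyond counting error. In the library labelled ERAP1+/-, Serpinb3a and Serpina3j had no read, and Serpinh1 (35.5 CPM), Serpinb5 (30.5 CPM) and Serpine2 (27.6 CPM) took the ranks after Serping1, with no neighbours among these 3 that differed beyond counting error.

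Only 10 serpins had a log2(CPM + 1) of at least 4 (15 CPM) in 1 or both libraries. Of these, 3 differed more than 2-fold with the lower level in the library labelled ERAP1+/- (Serpinb3a, Serpinb12 and Serpina3j) and 1 was higher (Serpina3n). Each of the called genes reached 15 CPM only in the library where it was higher. Level and difference are therefore not independent, and the counts only describe these libraries. Of the 8013 gene symbols past that level, 3.96% were lower and 1.39% were higher by the same rule. Most serpins had fewer reads, so a second rule was added after the values were seen: at least 10 reads over both libraries and a 95% interval of the ratio wholly past 2-fold. Of 26 serpins with that many reads, 12 were lower by this rule and 0 were higher. Over the 16142 symbols with that many reads, 3.95% were lower and 1.01% higher. The median difference of the 26 serpins was -0.79, with 18 below and 8 above 0. Over the 16142 symbols the median was 0.00, with 8026 below and 8116 above 0. The other 39 members had fewer than 10 reads.

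**Figure D1:**
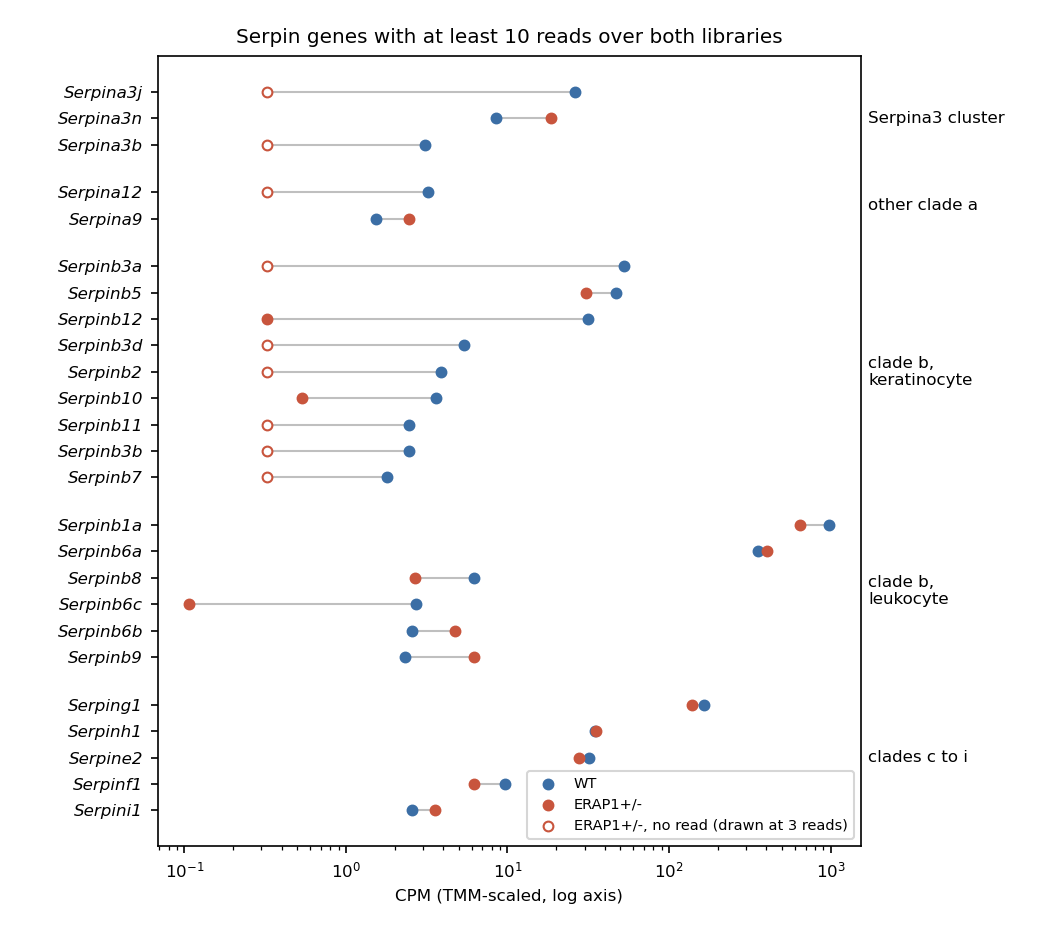
Levels of 25 serpin genes with at least 10 reads over both libraries, in TMM-scaled CPM on a log axis, by group. Each point is 1 library (blue WT, red the library labelled ERAP1+/-), there are no error bars, and open points had no read and are drawn at the 3 reads allowed. All 9 genes of the keratinocyte group are lower in the red library, by 1.54-fold for Serpinb5 and by more for the others, and Serpinb1a is 1.51-fold lower.

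The keratinocyte and squamous group of clade b contained the serpin with the largest difference, Serpinb3a (-5.74 in log2). Most of these 11 genes encode serpins known from epidermis and other stratified epithelia. Their summed reads were 1178 in WT and 292 in the library labelled ERAP1+/- (4.83-fold lower, 95% interval 4.25 to 5.51). All 9 with at least 10 reads were lower, 8 of them wholly past 2-fold, beside 3.95% of all symbols with that many reads. Serpinb3a, which belongs to the squamous cell carcinoma antigen family of cathepsin and serine protease inhibitors, had 407 reads in WT and none in the other library. It was at least 162-fold lower against the 3 reads allowed, and the exact 95% limit, which lies lower for each gene without a read, was 132-fold. Its relatives followed the same direction: Serpinb3d had 42 and 0 reads (at least 16.8-fold lower, exact limit 13.04) and Serpinb3b had 19 and 0 reads (at least 7.58-fold lower, exact limit 5.59). Serpinb3c, which overlaps Serpinb3b on the same strand, had no read in both. The Serpinb3 genes together had 468 and 0 reads, so that the direction did not depend on how reads were shared between them.

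Serpinb12, an inhibitor of trypsin-like proteases, had 245 reads in WT and 3 in the library labelled ERAP1+/-. It was 97.8-fold lower, with a 95% interval from 33.1 to 477. Serpinb2, known as plasminogen activator inhibitor 2, had 30 and 0 reads, which is at least 11.97-fold lower (exact limit 9.15). Its neighbour Serpinb10, also called bomapin and known from bone marrow cells, is annotated as a polymorphic pseudogene. It had 28 and 5 reads and was 6.70-fold lower (95% interval 2.56 to 22.2). The genes overlap on the same strand, and 20.8% of the 75-base words at the 3' ends of Serpinb2 transcripts also occur in Serpinb10. Serpinb11 had 19 and 0 reads (at least 7.58-fold lower, exact limit 5.59) and Serpinb7, also called megsin, 14 and 0 reads (at least 5.59-fold lower, exact limit 3.97). These 2 genes had low levels even in WT, 2.45 and 1.80 CPM. Serpinb13, an inhibitor of cathepsins L and K, had 8 and 0 reads, too few for the count above.

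Serpinb5 differed from its neighbours in size. The gene encodes maspin, a clade b member of epithelial cells that does not act as a classical protease inhibitor. It had 366 reads in WT and 284 in the library labelled ERAP1+/-, or 47.1 and 30.5 CPM, and was 1.54-fold lower (95% interval 1.32 to 1.81). It made up almost all of the reads left in this group in the library labelled ERAP1+/-. Without Serpinb5, the other 11 genes of the chromosome 1 cluster had 860 and 33 reads and were 31.2-fold lower together (95% interval 22.1 to 45.6).

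Position in the cluster and the size of the difference were compared with the flanking genes. All 10 genes of the chromosome 1 cluster with at least 10 reads were lower. At the end opposite Serpinb5 lay Serpinb8, which is expressed outside stratified epithelium as well and had 48 and 25 reads (2.30-fold lower, 95% interval 1.39 to 3.89). The nearest protein-coding genes outside the cluster with at least 100 reads were taken on either side. On the log2 scale, on the side of Serpinb5, Bcl2 differed by 0.68, Kdsr by 0.07 and Vps4b by -0.05, and on the side of Serpinb8, Cdh19 differed by -0.45, Dsel by -0.10 and Tsn by 0.02. The last 3 lie far off, from 3.28 to 10.7 Mb beyond the cluster. The corresponding genes on either side of the chromosome 12 cluster differed by -0.13 to 0.15. Around the chromosome 13 cluster the range was wider: Foxc1 had 84 and 16 reads (a log2 difference of -2.12), Gmds differed by 0.59, Wrnip1 by 0.70, and Bphl, Tubb2a and Tubb2b by 0.05 to 0.32.

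**Figure D2:**
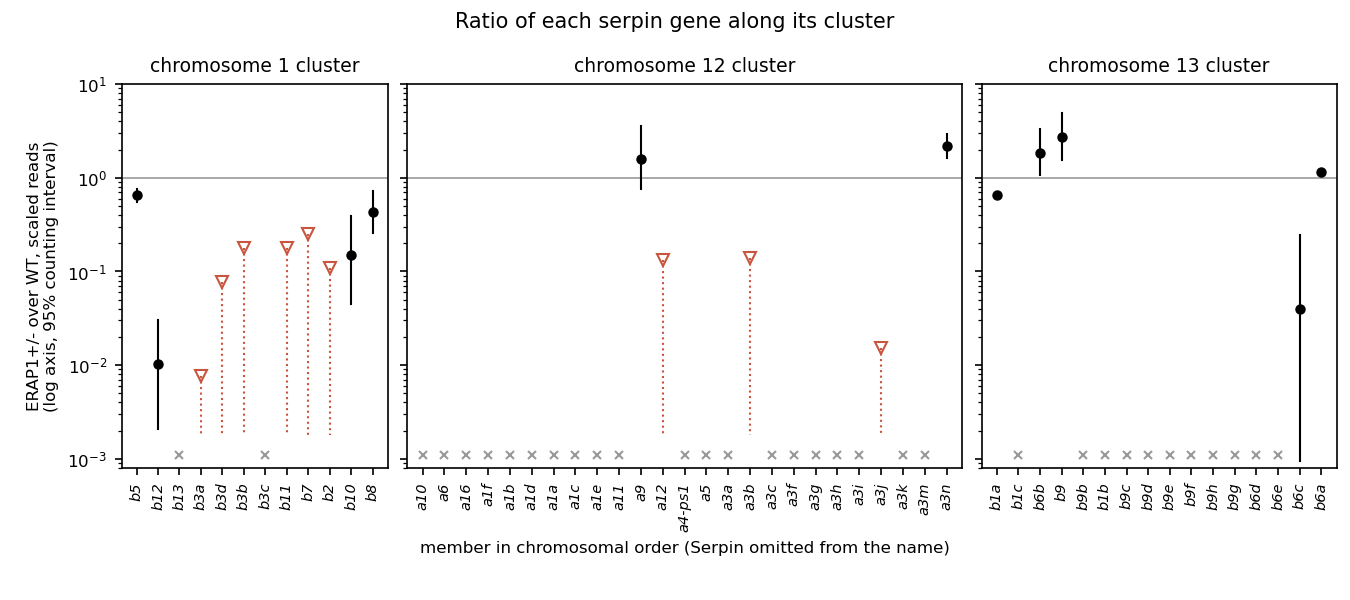
Ratio of the library labelled ERAP1+/- over WT (log axis) for the members of the 3 clusters in chromosomal order. Black points carry 95% counting intervals, open triangles are the upper 95% limits of genes with no read in the library labelled ERAP1+/-, and grey crosses at the bottom are members with fewer than 10 reads over both libraries. On chromosome 1 all 10 measured genes lie below 1, and on chromosomes 12 and 13 genes lie on both sides of 1.

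Markers of stratified epithelium moved with these serpins. The 19 suprabasal epidermis markers summed to 3262 CPM in WT and 49.3 CPM in the library labelled ERAP1+/-. All 18 with at least 10 reads were lower, and Krt2 had no read in both. The most abundant was Flg (filaggrin), with 7952 and 4 reads, and Krt10 had 3922 and 72. The 12 basal markers summed to 1178 and 582 CPM, all 12 lower, from Krt17 (593 and 26 reads) to Itga6 (1839 and 1907 reads, a log2 difference of -0.21). The 16 skeletal muscle markers, which mark another tissue, summed to 1444 and 24.8 CPM, and all were lower. The part of these cell types in the serpin values was not tested. In a bulk library, fewer cells of a type and less RNA per cell cannot be told apart.

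The leukocyte elastase and granzyme B group of clade b held most serpin reads, with 10482 in WT and 9919 in the library labelled ERAP1+/-. The median difference of its 6 genes with at least 10 reads was -0.20, with 3 lower and 3 higher. Serpinb1a inhibits neutrophil elastase, cathepsin G and proteinase 3. It had 7602 and 6009 reads, 978 and 646 CPM, and was 1.51-fold lower (95% interval 1.46 to 1.57). Serpinb6a, an inhibitor of cathepsin G and trypsin-like proteases, differed in the opposite direction, with 2762 and 3779 reads (356 and 406 CPM) and a ratio of 1.14 (95% interval 1.09 to 1.20). Serpinb6a overlaps Nqo2 and Ripk1 on the opposite strand, and whether reads were counted by strand is not given in the sources used here. Both differences stayed under 2-fold while their intervals excluded 1.

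The smaller members of this group were spread in both directions. Serpinb9, the intracellular inhibitor of granzyme B, had 18 and 58 reads, for a ratio of 2.69 (95% interval 1.56 to 4.85), and was below the level of 15 CPM in both libraries. Serpinb6b had 20 and 44 reads, for a ratio of 1.84 (95% interval 1.06 to 3.29). Serpinb6c, in contrast, had 21 and 1 reads and was 25.1-fold lower, with a wide 95% interval from 4.04 to 1040. Its coding sequence shares 87.2% of aligned bases with Serpinb6a, while 0.586% of the 75-base words at its 3' ends also occur in another gene. Of the 8 Serpinb9 genes, 6 had no read in both libraries and Serpinb9b had 1 read. On chromosome 13, the median difference of the 5 genes with at least 10 reads was 0.19.

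The proteases of white blood cells were sparse in both libraries. No member of the list of 15 leukocyte target proteases reached 15 CPM, the list had 152 and 57 reads in all, and Elane, Prtn3, Ctsg and Gzmk had no read. The members with the most reads were the mast cell proteases Tpsb2 (50 and 9 reads) and Mcpt4 (34 and 3 reads). Of the 7 with at least 10 reads, 6 were lower and 1 was higher. Kit, a receptor on the mast cell marker list, had 72 and 202 reads. The T and NK cell markers summed to 6.56 and 6.99 CPM. The neutrophil markers summed to 387 and 190 CPM, of which Ly6g alone had 2867 and 1367 reads, while S100a8 had 49 and 165 and S100a9 52 and 171. The colonocyte markers summed to 13635 and 9771 CPM, 11 of 12 lower, a direction they shared with Serpinb1a. The part of these lists in the serpin values was not tested.

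In clade a, the antichymotrypsin cluster held most reads, 299 in WT and 186 in the library labelled ERAP1+/-. The median difference of the 5 clade a genes with at least 10 reads was -2.03, with 3 lower and 2 higher. This median depends on genes without a read: it was -4.99 with a pseudocount of 0.1 in place of 1, and 0.00 over all 26 genes. The cluster's genes are the mouse copies of the human gene SERPINA3, a secreted inhibitor of chymotrypsin-like proteases. Serpina3j and Serpina3n differed in opposite directions. Serpina3j had 203 and 0 reads, which is at least 81.0-fold lower, with an exact 95% limit of 65.3-fold. Serpina3b had 24 and 0 reads, which is at least 9.58-fold lower (exact limit 7.21). Serpina3n had 66 and 172 reads, 8.49 and 18.5 CPM, for a ratio of 2.18 (95% interval 1.63 to 2.94). Its log2 difference was 1.04, just past the 2-fold rule, and its interval reached below 2. Serpina3j and Serpina3n share 81.8% of aligned coding bases and Serpina3j and Serpina3b 82.3%, and for all 3 genes no 75-base word at the 3' ends occurred in another gene. Without Serpina3n, the 10 other genes of the cluster had 233 and 14 reads and were 19.9-fold lower together (95% interval 11.6 to 37.0).

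The other clade a genes had few reads. Serpina12, also called vaspin, an adipokine that inhibits the kallikrein Klk7, had 25 and 0 reads, which is at least 9.98-fold lower (exact limit 7.53). Serpina9, or centerin, known from germinal centre B cells, had 12 and 23 reads, and the interval of its ratio of 1.60 included 1 (0.765 to 3.53). The 6 antitrypsin genes, which the liver makes in large amounts, had 2 and 9 reads together. The coding sequences of Serpina1a to Serpina1e share 96.3% to 98.5% of aligned bases, so the placement of reads among them is uncertain. The hepatocyte list, which contains Serpina1c, summed to 106 and 114 CPM. Fga, Fgb, Fgg and Apoh had no read in both libraries. The sum was mostly Ttr (391 and 709 reads) and Tat (373 and 256 reads).

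Clades c to i had similar sums, 1931 and 2020 reads or 248 and 217 CPM. Of their 6 genes with at least 10 reads, 3 were higher, 3 were lower and none passed 2-fold by either rule, a count of 0 that is near the shares over all symbols (3.95% lower and 1.01% higher by the interval rule). The median difference was -0.09. Serping1, the C1 inhibitor that restrains the complement proteases C1r and C1s, had 1287 and 1298 reads and a ratio of 0.842 (95% interval 0.779 to 0.911). Serpinh1 encodes Hsp47, a collagen chaperone of the endoplasmic reticulum that inhibits no protease. It had 271 and 330 reads and a ratio of 1.02 (95% interval 0.864 to 1.20). Serpine2, or protease nexin 1, an inhibitor of thrombin and urokinase, had 250 and 257 reads and a ratio of 0.859 (95% interval 0.719 to 1.03). For Serpinh1 and Serpine2 the intervals included 1 and excluded a 2-fold difference in counting terms.

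Other members with at least 10 reads had levels under 10 CPM. Serpinf1, which encodes pigment epithelium-derived factor, had 75 and 58 reads and was 1.55-fold lower (95% interval 1.08 to 2.22). Serpini1, or neuroserpin, had 20 and 33 reads, and the interval of its ratio of 1.38 included 1 (0.768 to 2.54). The fibroblast markers summed to 3514 and 2990 CPM, the endothelial markers to 161 and 178 CPM, and the macrophage markers to 240 and 281 CPM. Mast cell markers summed to 29.0 and 29.1 CPM, but their members went in both directions. Of the 8 with at least 10 reads, 5 were lower and 3 were higher, among them Kit (9.27 and 21.7 CPM).

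The genes that work with the serpins were compared by list. Of the kallikreins and other epidermal target proteases, 17 of 18 listed genes were found and 9 were past 15 CPM. Of those 9, 5 were lower by more than 2-fold and 0 were higher, beside 3.96% and 1.39% of all symbols past that level. These were Klk7 (735 and 0 reads), Klk13 (324 and 1), Klk10 (289 and 0), Klk9 (163 and 0) and Klk14 (161 and 4), serine proteases that in epidermis cut the links between shedding cells or activate one another. All 5 reached 15 CPM only in WT, and the list was chosen with earlier results of these data known. The count is therefore a description and no independent support. Below 15 CPM, Tmprss11d had 50 and 5 reads and Tmprss11e 37 and 5. Other members past 15 CPM did not pass 2-fold: St14 (matriptase) had 931 and 830 reads, Prss8 (prostasin) 143 and 209, Ctsl 1608 and 1295 and Ctss 5652 and 4598. The median over the 17 genes was -2.43.

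Other protease inhibitors showed both patterns. Of the 32 listed, 14 were past 15 CPM, 6 of these were lower by more than 2-fold and 0 were higher, beside the same shares of 3.96% and 1.39%. Spink5, the inhibitor of epidermal kallikreins, had 4453 and 24 reads, Stfa3 had 718 and 2, Cst6 had 848 and 6, Wfdc21 had 636 and 8, and Slpi had 1340 and 370. Of these, all but Slpi reached 15 CPM only in WT, and this list too was chosen with earlier results known. Spink1, the trypsin inhibitor of the gut and pancreas, had 17882 and 22121 reads, and Cst3 (cystatin C) had 2140 and 2959. The median over the 26 genes with at least 10 reads was -0.38.

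The partner lists of the extracellular serpins held few genes past 15 CPM, so that at the shares over all symbols (3.96% lower and 1.39% higher) a count of 0 is near the background. Of the clotting, fibrinolysis and complement proteases, 3 of 18 were past 15 CPM and 0 differed more than 2-fold. The Serping1 targets C1s1 (223 and 332 reads) and C1ra (117 and 185) both had more scaled reads in the library labelled ERAP1+/-, with log2 differences of 0.31 and 0.38. Of the cofactors and clearance receptors, 5 of 10 were past 15 CPM and 0 passed. Below that level, the urokinase receptor Plaur had 32 and 14 reads (2.74-fold lower). Of the 13 partners of Serpinh1 in collagen folding, 7 were past 15 CPM and 0 passed. Below that level, Crtap had 21 and 52 reads, a ratio of 2.07. Col1a1 had 1888 and 2186 reads and Col3a1 6337 and 7673.

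**Figure D3:**
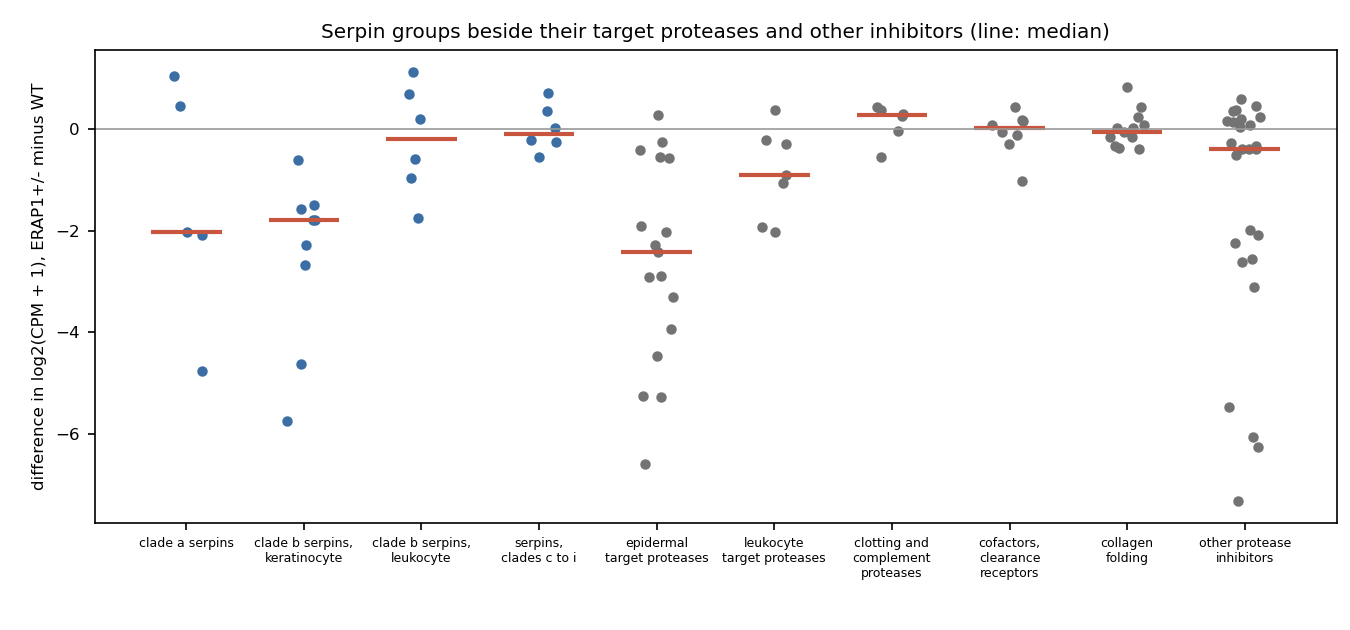
Differences in log2(CPM + 1), library labelled ERAP1+/- minus WT, of serpin groups (blue points) and partner lists (grey points), for genes with at least 10 reads over both libraries. Each point is 1 gene and each red line a median. The keratinocyte serpins (median -1.79) and the epidermal target proteases (median -2.43) lie below 0, and clades c to i (median -0.09) and the collagen folding list (median -0.05) lie near 0.

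**Figure D4:**
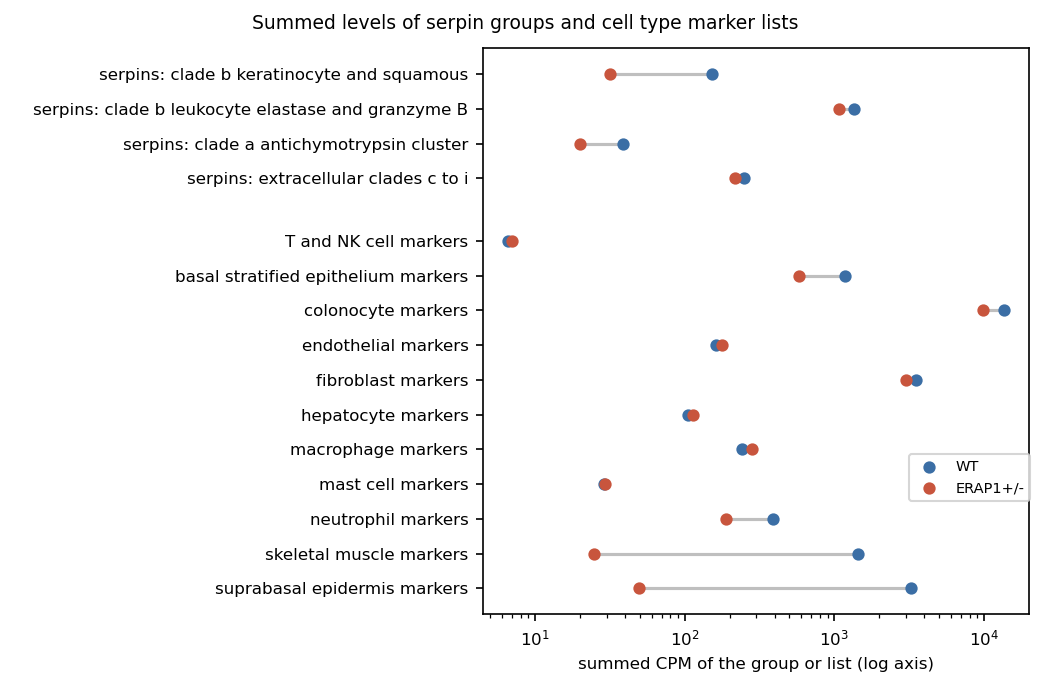
Summed CPM (log axis) of 4 serpin groups and 11 marker lists in WT (blue) and the library labelled ERAP1+/- (red), with 1 library per genotype and no error bars. The suprabasal epidermis and skeletal muscle lists differ most, and the keratinocyte serpins differ more (152 and 31.4 CPM) than the other serpin groups.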

How the data were processed

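The values deposited by the authors are raw read counts per gene symbol, not normalized, from 1 QuantSeq 3' library per genotype (single-end reads of 75 bases). The methods name both STAR with HTSeq and Bowtie2 with RSEM, the submitters' processing notes name Bowtie2, RSEM and GRCm38, and no strand setting is given in the sources used here. Near-identical or overlapping members may therefore share reads. TMM factors (0.958 and 1.04) came from edgeR 4.0.16 (R 4.3.3). Ratios have exact conditional binomial 95% intervals (scipy 1.17.1). The call rule and intervals were run on counts simulated with counting error alone, so variation between mice was not covered. The changes put into that simulation were in genes past 15 CPM, where few serpins lie. Alternatives were DESeq2 1.42.0 size factors, total counts, other pseudocounts, filters and thresholds, and thinned reads.

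Every serpin past 15 CPM, or with a log2(CPM + 1) difference past 1 and at least 10 reads, is named by rule (20 genes). Of the 6 others with at least 10 reads, 5 were added and 1 is not reported here. From each partner list, called members were named, up to 5, and others for contrast. Members and lists were chosen with earlier results of these data known. Coordinates come from GENCODE M21 (64 of 65 members) or RefSeq, and protein sequences were not used here.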

Additional observations from a re-analysis of the deposited data

How the results depend on the processing

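Under DESeq2 size factors, total counts, TMM without skin and muscle genes, a pseudocount of 0.1 and thinned reads, the same 4 serpins were called (3 lower and 1 higher), and none of the 26 genes with at least 10 reads changed direction. Scaling by total counts moved the median difference of all genes past 15 CPM by 0.12 (log2) and the counts over all genes from 317 lower and 111 higher to 248 and 166. Filters on low values decided the count. Without a filter 15 serpins were called (13 lower and 2 higher), with at least 10 reads in 1 or both libraries 14 (12 and 2), and with the interval rule 12 (12 and 0). With a level of 6 the count was 0, and no serpin called at level 4 reaches that level. Among these filters, shares over all symbols were computed only for level 4 and the interval rule. The other counts were not set against a background and describe the serpins only. A 4-fold threshold left 0 higher. With reads summed within clusters of near-identical genes 2 were called (Serpinb12 and the Serpinb3 sum) and 0 were higher, because the Serpina3 sum (299 and 186 reads) joins genes of opposite direction. The median of clade a was -4.99 with a pseudocount of 0.1, 0.00 without a filter and -1.63 with genes without a read set at 3 reads, beside -2.03. The median of clade b was -3.76 and -0.52 under the first 2 of these, beside -1.58. The median of clades c to i changed sign under total counts, to 0.03 beside -0.09, although no single gene did. Depth limits the 39 serpins with fewer than 10 reads. No paired analysis was possible because there is only 1 library of WT and 1 of ERAP1+/-, and no replicate could be left out.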
